A study of Mus musculus with 217 samples.

Results

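Brain endothelial mRNA at 72 hr after lipopolysaccharide (LPS) was compared with that at 0 hr, to describe which changes of the endothelial translatome were still present at this late time. The members are the libraries labelled brain at these times, with the sequencing runs of a library summed. Libraries with under 3% of their reads on genes were left out, which kept 4 of 5 libraries at 72 hr and 5 of 6 at 0 hr, of 80 kept among 98 libraries in the whole series. All mice were C57BL/6J carrying Cdh5CreERT2/+ and Rpl22HA/+ and had received tamoxifen by gavage, 5 mg per dose in 4 doses, at 4 to 6 weeks of age. The 72 hr mice had received 10 mg/kg LPS intraperitoneally, and the 0 hr mice are the controls, which the study's methods describe as injected with PBS. Brain libraries at 6 hr (5), 24 hr (4), 48 hr (6) and 168 hr (4) after the same dose, and heart libraries at 0 hr (5) and 72 hr (4), served only for comparison. The tagged ribosomal protein is expressed where the Cdh5 (VE-cadherin) promoter has driven Cre, and RNA bound to tagged ribosomes was pulled down from whole brain with an antibody against the HA tag. The pull-down enriches endothelial RNA and does not remove RNA of other brain cells. Each library is taken as a separate sample of its group, and p-values measure the spread between these samples, since nothing in the sources used here states which libraries share a mouse.

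LPS, a component of the bacterial outer membrane, is recognised through Cd14 and the receptor Tlr4, and activates NF-kappaB, a transcription factor that turns on chemokines, leukocyte adhesion molecules and acute phase genes. Interferon-stimulated genes rise in the same response through a second branch. ECs of the brain form the blood-brain barrier, with sealed junctions and many solute transporters, and adult brain ECs divide rarely. The cell cycle runs from DNA replication, for which the Mcm helicase is loaded, to mitosis, which is driven by Cdk1 with the B-type cyclins.

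Total counts on genes ran from 7226796 to 28500403 in the 72 hr libraries and from 8757674 to 25410277 in the 0 hr libraries. Levels are depth-normalised counts (CPM, TMM-scaled) unless a log2 scale is named. Endothelial identity markers summed to 8249 to 15473 CPM at 72 hr and to 4849 to 11500 CPM at 0 hr, and no marker was at 0 in all of these libraries. RNA of other cells was present at both times, with neuronal markers at 1250 to 10123 CPM at 72 hr and 2901 to 11602 CPM at 0 hr, and microglia and macrophage markers at 283 to 916 CPM and 263 to 518 CPM. In such bulk samples fewer cells of a type and less RNA per cell cannot be told apart. The labels give no sex, but the Y-linked genes Ddx3y, Eif2s3y, Kdm5d and Uty together stood at 80.1 to 187.9 CPM in 4 of the 5 0 hr libraries, at 0.135 CPM in 0 hr replicate 5 and at 0 to 0.0702 CPM in all 4 72 hr libraries. Xist, which is transcribed from the inactive X chromosome, ran from 43.8 to 230.9 CPM at 72 hr and was 483.2 CPM in 0 hr replicate 5. Sex as read from these genes therefore differed between most of the libraries compared. Counts were also taken from a fit with this sex as a covariate. That term rests on the mixed groups, 0 hr (4 read as male and 1 as female), 6 hr (2 and 3) and 24 hr (2 and 2). All 4 libraries at 168 hr were also nearly without Y-linked counts and all 6 at 48 hr had them. At 6 hr, replicate 6 stood apart, with Lcn2 at 362 CPM and Saa3 at 1.35 CPM, where the other 4 libraries had at least 5775 and 1580 CPM. Its Lcn2 was above every 0 hr library and its Saa3 within their range. The acute phase genes described below summed to 932 CPM in it, above the 0 hr maximum of 431 CPM. Whether all libraries carry the right label is in doubt from these values, the unlabelled sex and the spread of the 48 hr libraries. This was not tested. Replicate 6 is also among the 6 hr libraries read as female, and no fit with the sex covariate left it out.

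At 72 hr, 573 of 19234 genes tested were higher than at 0 hr (2.98%) and 105 were lower (0.546%), with edgeR's quasi-likelihood test and a Benjamini-Hochberg adjusted p threshold of 0.05. With sex as a covariate the counts were 397 and 52. Within library series 2, a set read from the pattern of the deposited run names and the only one with several libraries of both groups (72 hr replicates 1 and 2, 0 hr replicates 3 to 5), they were 253 and 26. By comparison 810 genes were higher and 428 lower at 6 hr (4.21% and 2.23%), 1254 and 897 at 24 hr (6.52% and 4.66%), and 1560 and 1178 at 48 hr (8.11% and 6.12%). Against 6 hr, 1012 genes were higher at 72 hr and 732 lower (5.26% and 3.81%). At 168 hr no gene passed by this test in either direction, with 556 higher and 272 lower at an unadjusted p under 0.05. The Y-linked genes and Xist did not pass either, although they differed between most of these libraries. The count of 0 therefore does not show that no gene differed. DESeq2 called 0 higher and 2 lower at 168 hr, and limma-voom called 0 in both directions. Without 6 hr replicate 6 the counts at 6 hr were 1469 and 1291. All times share the same 0 hr libraries.

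**Figure D1:**
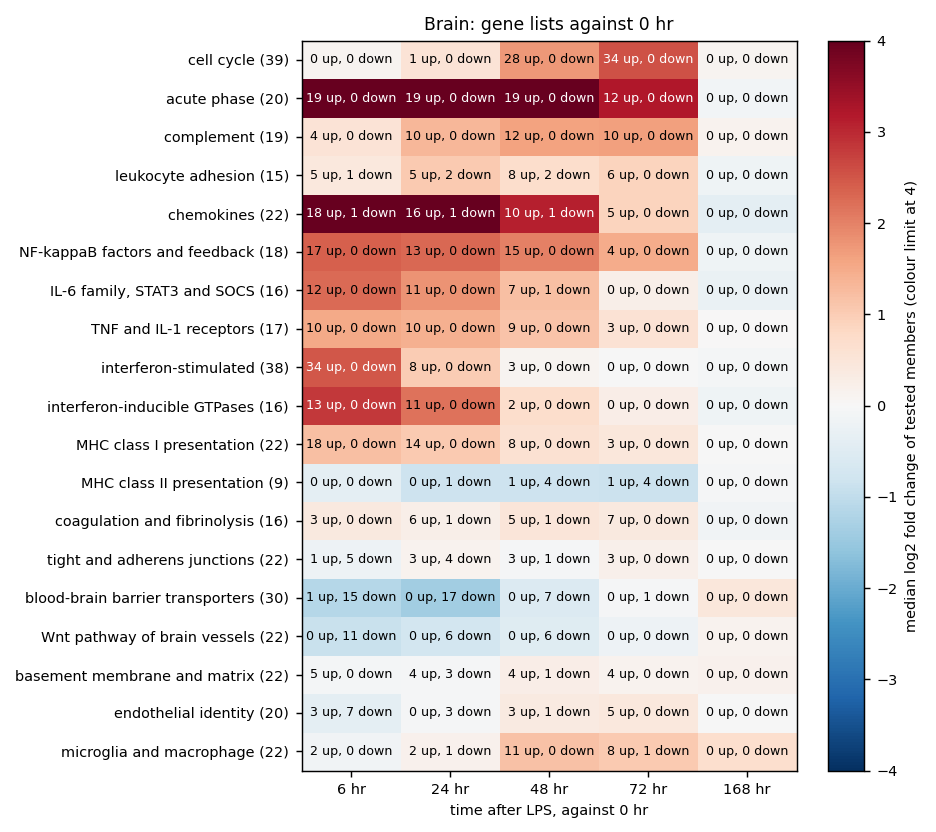
Gene lists (rows, with the number of members tested) at each time after LPS in brain against 0 hr. Colour is the median log2 fold change of the tested members, cut at 4 on either side, and each cell counts members past an adjusted p of 0.05 in each direction. Cell cycle members are called at 48 hr (28) and 72 hr (34), and interferon-stimulated members at 6 hr (34), 24 hr (8) and 48 hr (3).

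Saa3 and Lcn2 led the 15 named genes that rose at 72 hr. Saa3, an acute phase serum amyloid (chr7:46711998-46715700 on mm10), stood at 608, 704, 377 and 965 CPM in the 4 libraries at 72 hr, and at 2.12, 0.101, 1.05, 1.1 and 0.716 CPM in the 5 at 0 hr. The groups were far apart, with a log2 fold change of 9.12 ± 1.26 (SE, adjusted p = 0.000121). Lcn2, an iron-scavenging lipocalin (chr2:32384633-32388252), stood at 1064, 792, 2012 and 5544 CPM at 72 hr against 22.1, 27.1, 42.2, 25.7 and 6.24 CPM at 0 hr (5.73 ± 0.93, adjusted p = 0.000528). Every 72 hr library lay above every 0 hr library, and replicate 5 was the highest for both genes. Over all genes tested, 799 (4.15%) had every 72 hr library above every 0 hr library and 444 (2.31%) had every one below.

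The 15 named genes that rose also included C3 (log2 fold change 5.70), Upp1, a uridine phosphorylase (4.39), the LPS co-receptor Cd14 (4.11), the venular chemokine receptor Ackr1 (4.01) and Bst1, a cell surface ADP-ribosyl cyclase (3.74). Serpina3n, a serine protease inhibitor (3.35), Tubb6, a beta-tubulin (3.12), C1ra, a complement protease (3.11), and Ch25h, the cholesterol 25-hydroxylase (3.08), followed. Vil1, an actin-binding villin (2.99), Plaur, the urokinase receptor (2.99), Gpx3, a secreted glutathione peroxidase (2.89), and Hcls1, a cortactin-related protein of blood cells (2.81), completed the list. Of the 15, 14 also passed with sex as a covariate, and Plaur had an adjusted p of 0.0873. Vil1 stood at 30.4, 45.8, 68.4 and 82.8 CPM at 72 hr against 9.42, 15.1, 6.39, 5.66 and 6.76 CPM at 0 hr. Its log2 fold change was -1.39 at 6 hr (adjusted p = 0.0929), 0.29 at 24 hr (adjusted p = 0.776) and 1.29 at 48 hr (adjusted p = 0.056), none past the threshold. The direct contrast of 72 hr with 24 hr was 2.71 ± 0.54 (adjusted p = 0.00788). In that contrast the count of all genes higher fell from 667 to 30 without 72 hr replicate 5.

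**Figure D2:**
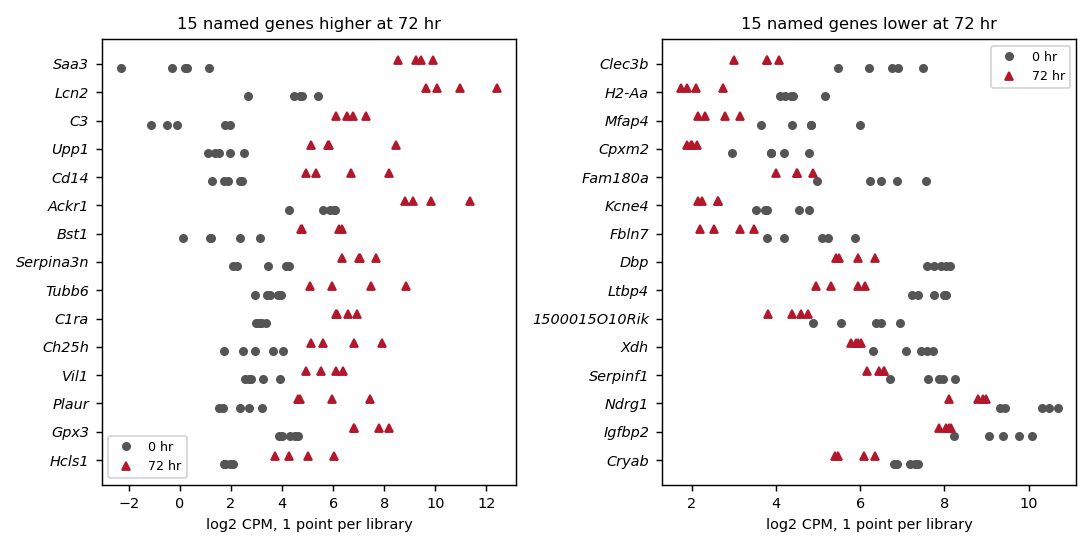
Levels (log2 CPM) of the 15 named genes that rose and the 15 that fell at 72 hr, with 1 point per library, 5 at 0 hr (grey circles) and 4 at 72 hr (red triangles). By the rule that chose these genes the groups do not overlap, with Saa3 and Clec3b at the top of each list.

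Cell cycle genes were higher at 72 hr as a group. Of 39 tested members of the list, 34 rose and none fell (573 of all genes, 2.98%), with a median log2 fold change of 2.56 over the list against -0.04 over all genes tested. The 5 members that did not pass were Kif23, E2f1, Ccne2, Ccne1 and Pcna, and 1 of the 40 members did not pass the filter on low counts. The count was 26 of the 34 with sex as a covariate, 15 within library series 2, and 24 to 34 when a 0 hr or 72 hr library was left out, with 24 reached without 72 hr replicate 3.

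Mki67, the proliferation marker Ki-67 (chr7:135689784-135716361, minus strand), stood at 15.6, 26, 74 and 24.2 CPM at 72 hr. At 0 hr it stood at 0.824, 0.202, 1.17, 2.4 and 2.03 CPM, below every 72 hr library (log2 fold change 5.35 ± 0.86, adjusted p = 0.000528). The mitotic kinase Cdk1 (chr10:69335146-69352938, minus strand) stood at 15.9, 23.7, 101 and 49.8 CPM against 0.303 to 1.63 CPM at 0 hr (5.68 ± 0.92, adjusted p = 0.000528). Bub1, a spindle checkpoint kinase, reached 1.32, 1.9, 14.7 and 3.45 CPM and had no count in 0 hr replicates 1 and 3 (6.21 ± 1.07, adjusted p = 0.00094). Aurkb, the kinase of the chromosomal passenger complex, reached 1.54, 2.59, 31.4 and 10.6 CPM against at most 0.362 CPM at 0 hr (5.66 ± 0.97, adjusted p = 0.000868). In all 4 genes the groups did not overlap, and 72 hr replicate 3 was the highest library. 0 hr replicate 5, the control nearly without Y-linked counts, had 2.03 CPM of Mki67, 1.55 of Cdk1, 0.0795 of Bub1 and 0.199 of Aurkb.

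The genes that rose included G1 and replication genes, of which Ccnd1 and the Mcm subunits were chosen after their values were seen. The G1 cyclin Ccnd1 stood at 129, 170, 349 and 948 CPM at 72 hr against 35.4 to 154 CPM at 0 hr, so that the groups overlapped (2.10 ± 0.48, adjusted p = 0.011). The replication helicase subunits Mcm2 to Mcm7 rose by 0.76 (Mcm4) to 2.45 (Mcm5) on the log2 scale. Summed over the 40 members, the list stood at 418, 507, 1927 and 1752 CPM in 72 hr replicates 1, 2, 3 and 5, and at 154 to 331 CPM at 0 hr. Microglia and macrophage markers summed to 916, 844, 347 and 283 CPM in the same 4 libraries. At 0 hr they summed to 263 to 518 CPM, and the part of microglia in the cell cycle changes was not tested.

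The letters upstream of these genes are shown because many cell cycle genes are known to share promoter elements, the CCAAT box and the cell cycle genes homology region (TTTGAA). The windows run from 250 bases before to 50 after the start of the gene, from RefSeq on GRCm38.p6, each written 5' to 3' on the gene's strand. Capitals mark every CCAAT and TTTGAA on either strand (ATTGG and TTCAAA on the other), with overlapping matches each counted. Cdk1 (chr10:69352863-69353162, - strand), Mki67 (chr7:135716330-135716629, - strand) and Bub1 (chr2:127831810-127832109, - strand) are the named members with an entry, and Ccnb2, cyclin B2 (chr9:70421505-70421804, - strand), was added after its matches were seen.
Cdk1: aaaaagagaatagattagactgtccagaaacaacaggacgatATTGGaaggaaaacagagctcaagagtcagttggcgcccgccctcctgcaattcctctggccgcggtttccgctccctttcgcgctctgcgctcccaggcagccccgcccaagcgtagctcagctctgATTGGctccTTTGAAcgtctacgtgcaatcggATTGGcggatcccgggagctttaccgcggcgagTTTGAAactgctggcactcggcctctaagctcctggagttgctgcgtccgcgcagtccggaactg
Mki67: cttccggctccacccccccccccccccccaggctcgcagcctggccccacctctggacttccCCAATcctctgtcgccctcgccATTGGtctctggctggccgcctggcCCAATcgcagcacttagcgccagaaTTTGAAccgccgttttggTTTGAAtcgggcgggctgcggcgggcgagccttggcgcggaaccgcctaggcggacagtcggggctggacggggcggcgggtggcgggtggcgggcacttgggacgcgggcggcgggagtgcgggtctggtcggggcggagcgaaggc
Bub1: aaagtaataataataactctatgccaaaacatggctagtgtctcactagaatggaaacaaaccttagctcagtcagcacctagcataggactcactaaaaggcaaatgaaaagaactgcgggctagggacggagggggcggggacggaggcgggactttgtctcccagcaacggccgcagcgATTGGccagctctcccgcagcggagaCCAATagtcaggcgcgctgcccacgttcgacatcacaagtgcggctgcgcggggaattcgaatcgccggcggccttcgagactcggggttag
Ccnb2: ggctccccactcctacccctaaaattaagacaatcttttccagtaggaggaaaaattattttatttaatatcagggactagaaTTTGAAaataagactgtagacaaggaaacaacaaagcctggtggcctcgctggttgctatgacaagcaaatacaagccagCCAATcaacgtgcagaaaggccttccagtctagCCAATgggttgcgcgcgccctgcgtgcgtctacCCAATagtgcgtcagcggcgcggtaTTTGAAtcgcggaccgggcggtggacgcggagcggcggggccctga
Cdk1, Mki67 and Ccnb2 each held 3 CCAAT and 2 TTTGAA matches, and Bub1 held 2 CCAAT matches and no TTTGAA. Of the 34 cell cycle members that rose, 27 matched the promoter table, with 29 promoters. CCAAT was present in 23 of the 29 (79.3%) and in 37.4% of all 32851 promoters, and TTTGAA in 14 (48.3%) against 17.9%. For the acute phase members that rose, 11 of 12 matched, and CCAAT and TTTGAA were each present in 2 of their 12 promoters (16.7%).

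**Figure D3:**
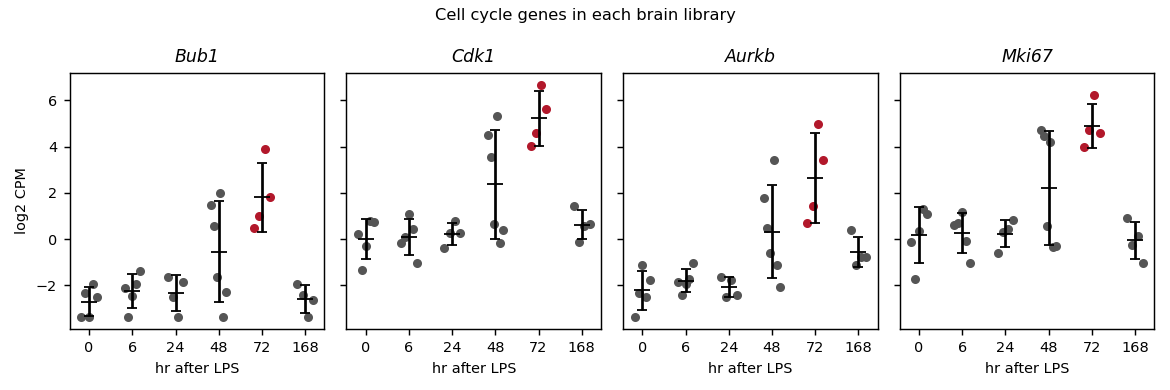
Levels (log2 CPM) of Bub1, Cdk1, Aurkb and Mki67 in each brain library at 0, 6, 24, 48, 72 and 168 hr, with the mean and SD of each group in black and the 72 hr libraries in red. All 4 libraries at 72 hr lie above all 5 at 0 hr, and the 6 libraries at 48 hr spread over both levels.

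The cell cycle list was not called early. No member passed at 6 hr, 1 rose at 24 hr and 28 rose at 48 hr (17 without 0 hr replicate 1 and 11 with limma-voom). The 48 hr libraries did not move together, since Mki67 stood at 25.8, 21.8 and 18.1 CPM in replicates 1, 2 and 4 and at 1.36, 0.696 and 0.711 CPM in replicates 3, 6 and 7. Lcn2 stood at 1139, 366 and 10180 CPM in the first 3 of these and at 33650, 28218 and 33358 CPM in the others. At 168 hr no member differed from 0 hr by the test. Between 168 hr and 72 hr, groups with the same sex as read from the Y-linked genes, 35 of the 39 members fell (925 of all genes, 4.81%), with a median of -2.85 against 0.13 over all genes. Mki67 was at 0.398 to 1.79 CPM at 168 hr, below every 72 hr library (-4.73, adjusted p = 0.0024). Without 72 hr replicate 5 the count was 17, and without replicate 3 it was 22.

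Against 24 hr, 28 of 39 cell cycle members were higher at 72 hr (667 of all genes, 3.47%). Without 72 hr replicate 5, the one 72 hr library that shares library series 4 with 2 of the 24 hr libraries, the count was 4 (18 without replicate 3) and the count over all genes fell from 667 higher and 369 lower to 30 and 4. With sex as a covariate it was 23. Between 72 hr and 48 hr no gene passed by edgeR (1617 higher and 1926 lower at an unadjusted p under 0.05), whereas DESeq2 called 162 and 386.

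The acute phase list, liver-type plasma proteins and their inducers, remained high at 72 hr. Of 20 tested members 12 rose and none fell (2.98% and 0.546% of all genes), with a median log2 fold change of 3.22. With sex as a covariate 11 of the 12 passed. The count was 5 with limma-voom and 7 in a fit blocked on the replicate number. At 6, 24 and 48 hr 19 members had been called at each time. The largest changes were those of Saa3, Serpina3f (5.82), Itih4, a hyaluronan-binding inhibitor chain (5.75), and Lcn2. Reads of Serpina3f that also match its near-identical neighbours may be missing from its count, since reads aligned to several places were not assigned to a gene. Itih4 stood at 9.36, 7.85, 12.9 and 5.43 CPM at 72 hr and at 0 to 0.362 CPM at 0 hr, apart in every library. Its change was 2.54 at 6 hr and 3.31 at 24 hr, and it was higher at 72 hr than at 24 hr (2.44, adjusted p = 0.0186). By contrast 9 acute phase members were lower at 72 hr than at 24 hr (369 of all genes, 1.92%), a count that was 0 without replicate 5. The single higher member, Itih4, was not called there without replicate 5 either. Summed over the 22 members, the list stood at 2297 to 9123 CPM at 72 hr, 18978 to 60061 CPM at 24 hr and 162 to 431 CPM at 0 hr, so that the levels at 72 hr lay between the other ranges in every library.

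Complement genes were also still high. Of 19 tested members 10 rose and none fell (2.98% and 0.546% of all genes), with a median of 1.65. The count was 7 with sex as a covariate, 7 within library series 2 and 4 without the covariate for library series. C3, the central component of the cascade (chr17:57203970-57228136), stood at 68.5, 94.1, 157 and 111 CPM at 72 hr and at 0.353, 0.606, 3.26, 0.814 and 3.82 CPM at 0 hr (5.70 ± 0.78, adjusted p = 0.000108). C1ra stood at 71.3, 68.5, 95.6 and 123 CPM against 7.71 to 10.1 CPM (3.11 ± 0.41, adjusted p = 7.86e-05). C1s1, the partner protease of C1ra, rose by 2.76 and C5ar1, a C5a receptor, by 2.13. In the first 3 of these genes every 72 hr library was above every 0 hr library and each passed with sex as a covariate. C1qa, C1qb and C1qc, which microglia express strongly and which also stand in the microglia list, rose by 1.20 to 1.87, and of these C1qa passed with sex as a covariate.

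The microglia and macrophage list itself had 8 of 22 members higher and 1 lower (Siglech), where 2.98% and 0.546% of all genes were. At 48 hr 11 were higher, and 2 of the 9 called at 72 hr passed with sex as a covariate. The higher count at 72 hr was 10 within library series 2, 0 without the covariate for series and 3 without 72 hr replicate 5. It was 5 without 72 hr replicate 1 or 2, and 4 and 5 without 0 hr replicates 1 and 4. Their part in the changes of the complement and chemokine lists was not tested. Neutrophil markers summed to 19.0 to 99.7 CPM at 72 hr and 8.59 to 66.9 CPM at 0 hr, and 1 of 13 passed. Markers of neurons, oligodendrocytes, pericytes, meningeal fibroblasts and choroid plexus had no member past the test at 72 hr. Lymphocyte markers had 2 of 10 members lower, astrocyte markers 1 of 12 (S100b) and red cell genes 1 of 6.

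The leukocyte adhesion list had 6 of 15 members higher and none lower (2.98% and 0.546% of all genes), with a median of 0.90. Selp, P-selectin, stood at 10.9, 11.9, 74.8 and 389 CPM at 72 hr and at 0.118 to 1.01 CPM at 0 hr (6.78 ± 1.26, adjusted p = 0.00179). Replicate 5 was the highest, and the lowest 72 hr library was still above every control. Icam1, a ligand of leukocyte integrins, stood at 205, 226, 401 and 622 CPM against 23 to 57.8 CPM (2.78 ± 0.60, adjusted p = 0.00718). Vcam1 stood at 437, 417, 846 and 498 CPM against 97.1 to 271 CPM (1.56 ± 0.34, adjusted p = 0.00787), again without overlap. Madcam1, a further integrin ligand, also rose, at low levels of 0.301 to 0.987 CPM. All 6 members passed with sex as a covariate, 3 without 72 hr replicate 3 and 2 within library series 2, while Sele, E-selectin, did not pass (3.65, adjusted p = 0.168).

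Signalling genes of the early response had fewer members called at 72 hr than at 6 hr, where 2.98% and 4.21% of all genes were higher. The called shares of the NF-kappaB, chemokine and receptor lists at 72 hr were still above that of all genes. Median log2 fold changes were 1.47 for the NF-kappaB list, 0.88 for chemokines, 0.58 for receptors and 0.23 for the IL-6 list. Every 72 hr library lay above every 0 hr library in 9 of 18, 8 of 22, 4 of 17 and 3 of 16 members (4.15% of all genes). In 1 IL-6 member every 72 hr library lay below. Of 22 tested chemokine genes 5 rose at 72 hr (18 at 6 hr and 16 at 24 hr), led by Cxcl1 (4.75), Ackr1, Ccl12 (3.49) and Ccl5 (3.37). Cxcl1, a neutrophil chemoattractant, stood at 21.9, 26.6, 74.8 and 331 CPM against 0.706 to 2.61 CPM at 0 hr, and its adjusted p was 0.0311. Only Ackr1 of the 5 passed with sex as a covariate, and the count was 2 with limma-voom, the replicate block or without 0 hr replicate 3, 4 without 72 hr replicate 1, and 3 without any other single 0 hr or 72 hr library. In the direct contrast with 24 hr 10 chemokine genes were lower at 72 hr (369 of all genes, 1.92%). So were 1 NF-kappaB, 2 receptor and 4 IL-6 members, and 0 members of these lists were higher. Without 72 hr replicate 5 only 4 of all genes were lower in that contrast, so at most 4 of these calls could remain. The NF-kappaB list had 4 of 18 members higher (17 at 6 hr), namely the factors Nfkb2 (1.98) and Relb (1.52), the inhibitor Nfkbie (1.61) and the adaptor Traf1 (1.45), and none of the 4 passed with sex as a covariate and 2 without 72 hr replicate 3 or replicate 5. The receptor list had Cd14, the decoy receptor Il1r2 (3.11) and Tlr4 (1.04) higher of 17 (10 at 6 hr). None of 16 members of the IL-6, STAT3 and SOCS list passed at 72 hr (12 at 6 hr), and its most abundant members were the receptor subunit Il6st (0.06 ± 0.24) and Stat3 (0.23 ± 0.38). In this list 4 were higher with only the 0 hr and 72 hr libraries, 4 without the low-count filter and 2 within library series 2. With DESeq2 1 was higher and 1 lower, and without 6 hr replicate 6 2 were higher and 1 lower.

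Interferon-stimulated genes were not called at 72 hr. None of 38 members passed, which is near the 2.98% of all genes higher at 72 hr, and the median log2 fold change was -0.02. Every 72 hr library lay above every 0 hr library in 3 members (4.15% of all genes). Members higher numbered 34 at 6 hr, 8 at 24 hr and 3 at 48 hr (4.21%, 6.52% and 8.11% of all genes). With DESeq2 1 member was higher, and with only the 0 hr and 72 hr libraries in the fit 3 were. The most abundant members were Ifitm3, an antiviral membrane protein (0.99 ± 0.41, adjusted p = 0.221), and Ifi27 (-0.08 ± 0.19, adjusted p = 0.888). Isg15, a ubiquitin-like antiviral protein named after its values were seen, stood at 44.3, 53.9, 49.7 and 72.5 CPM at 72 hr, within the 45 to 84.8 CPM of the 0 hr libraries in all but replicate 1. None of 16 interferon-inducible GTPases passed (13 at 6 hr, 11 at 24 hr), again near the 2.98% of all genes. The most abundant, Gbp3 and Gbp2, stood at 0.25 ± 0.55 and 0.30 ± 0.58 on the log2 scale. Of 22 MHC class I genes 3 rose (18 at 6 hr), where 2.98% of all genes did at 72 hr. These were H2-Q7 (1.57), H2-K1 (1.38) and H2-D1 (1.21). Reads that also match near-identical class I genes may be missing from their counts, since reads aligned to several places were not assigned to a gene. H2-K1 stood at 637 to 855 CPM at 72 hr and 185 to 403 CPM at 0 hr, without overlap.

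MHC class II genes, which present antigen to helper T cells, were lower for the most part of those called. Of 9 tested members 4 fell (105 of all genes, 0.546%), H2-Aa (-2.50 ± 0.40, adjusted p = 0.000528), H2-Eb1 (-2.36), H2-Ab1 (-2.06) and H2-DMa (-0.85). H2-Aa stood at 3.23, 6.55, 4.17 and 3.62 CPM at 72 hr and at 35.9, 21, 20.3, 18.4 and 16.9 CPM at 0 hr, with no overlap. Cd74, the invariant chain, was at 14.3 to 28.2 CPM against 29.8 to 71.9 CPM and did not pass (-1.39, adjusted p = 0.0638). Ctss, a lysosomal protease that also marks microglia, rose by 1.49. With sex as a covariate H2-Aa, H2-Eb1, H2-Ab1 and Ctss passed and H2-DMa did not. Lymphocyte markers summed to 5.53 to 18.4 CPM at 72 hr and 17.5 to 32.2 CPM at 0 hr, with 2 of 10 lower, and between 72 hr and 168 hr 4 class II genes and 3 lymphocyte markers rose. The part of antigen-presenting cells in the class II changes was not tested.

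**Figure D4:**
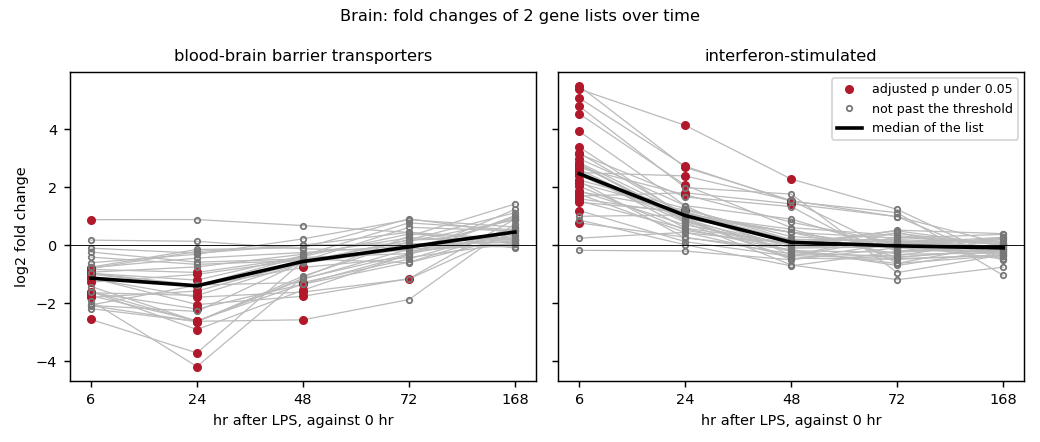
Log2 fold changes against 0 hr of the 30 members of the blood-brain barrier transporter list and 38 interferon-stimulated genes (grey lines) at 6, 24, 48, 72 and 168 hr, with members past an adjusted p of 0.05 in red and the median of the list in black. At 72 hr 1 transporter and no interferon-stimulated gene is past the threshold, where 2.98% of all genes were higher and 0.546% lower.

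Of 30 members of the blood-brain barrier transporter list 1 was lower at 72 hr and none higher, with a median of -0.05. Over all genes 0.546% were lower and 2.98% higher. At 6 hr 15 members had been lower, at 24 hr 17 and at 48 hr 7. The shares of all genes lower at these times were 2.23%, 4.66% and 6.12%. The member lower at 72 hr was Mfsd2a, the lysophospholipid transporter of brain ECs, at 75.2, 102, 38.3 and 29.8 CPM against 109 to 191 CPM (-1.16 ± 0.32, adjusted p = 0.0442). It did not pass with sex as a covariate (-1.23, adjusted p = 0.117), or without 72 hr replicate 1, 3 or 5 or 0 hr replicate 1, 2 or 4. Without 72 hr replicate 5 the list had 2 members higher and 0 lower. Slc22a8, an organic anion transporter, and Spock2, a list member that is not itself a transporter, did not pass. In both every 72 hr library lay below every 0 hr library, with Slc22a8 at 58.4 to 186 CPM against 251 to 862 CPM (-1.87 ± 0.58, adjusted p = 0.079). The glucose transporter Slc2a1 stood at 1458 to 2380 CPM and 1177 to 2852 CPM (-0.04 ± 0.24, adjusted p = 0.954). Both Slc22a8 and Slc2a1 were chosen after their values were seen. Against 24 hr, 12 list members were higher at 72 hr and none lower (3.47% and 1.92% of all genes). The higher count was 3 with sex as a covariate, 2 without replicate 5 and 6 without replicate 2 or 3. In replicate 5 Slc7a5, a large amino acid transporter, was at 149 CPM, where the other 72 hr libraries had 585 to 871 CPM and the 0 hr libraries 596 to 1059 CPM.

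The Wnt list, the pathway that maintains the barrier, had 0 of 22 members past the test (11 lower at 6 hr). Beta-catenin, Ctnnb1, was at -0.53 ± 0.18 and the Wnt target Apcdd1 at 0.87 ± 0.29. In 2 members every 72 hr library lay below every 0 hr library (2.31% of all genes). The list of caveolae, vascular tone and shear had 0 of 16 (6 lower at 6 hr), with Cavin1 at 0.27 ± 0.31 and Sema7a at 0.84 ± 0.30. Both counts of 0 are near the share of all genes at 72 hr, 2.98% higher and 0.546% lower. At 6 hr 2.23% of all genes were lower. Among junction genes 3 of 22 rose and none fell (2.98% and 0.546% of all genes). These were Nectin2, an adherens junction protein (1.49 ± 0.20, adjusted p = 0.000111), Cldn5, the main claudin of brain ECs (1.07), and F11r, a junctional adhesion molecule (0.95). Cldn5 stood at 1880, 2183, 2520 and 3017 CPM against 769 to 1764 CPM at 0 hr without overlap, and its adjusted p was 0.0251, and with sex as a covariate 0.115. The count of 3 was 1 without 0 hr replicate 1, 3 or 5, without 72 hr replicate 2, or without the covariate for series.

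Several genes of EC identity rose alongside, 5 of 20 with none lower. For this list and those below in this paragraph, the share over all genes was 2.98% higher and 0.546% lower. Vwf, von Willebrand factor, stood at 495, 634, 777 and 401 CPM against 115 to 280 CPM (1.79 ± 0.42, adjusted p = 0.0137), and Ly6a (1.17), Pecam1 (1.08) and Cldn5 (1.07) followed. Of the 5 called, 2 passed with sex as a covariate, and none was called without the covariate for library series. The summed identity list had a higher but overlapping range at 72 hr, and a larger share of endothelial RNA in the pull-down cannot be told apart from changes within ECs. Coagulation genes had 7 of 16 members higher, among them Plaur, Procr, the protein C receptor (1.99), and Tfpi2 (1.90), and 1 of the 7 passed with sex as a covariate. That count was 2 without the covariate for series and 3 without 0 hr replicate 1, 2, 3 or 5 or 72 hr replicate 2 or 5, and 4 without 72 hr replicate 3. Matrix genes had 4 of 22 higher, namely the fibronectin receptor subunit Itga5 (1.59), Col4a1 (1.44), Col4a2 (1.34) and Sparc (1.02). Of these, 2 passed with sex as a covariate, 1 with the replicate block, 1 without 72 hr replicate 3 or 5 or 0 hr replicate 2 or 3, and 2 without 72 hr replicate 2 or 0 hr replicate 1 or 4. Angiogenic genes had 3 of 22 higher (Vwf, Adm and Tie1), and 1 with sex as a covariate, without 72 hr replicate 3 or without the covariate for series. Lipid genes had 2 of 25 higher (Ch25h and Apod), both also with sex as a covariate, and 1 without 72 hr replicate 2 or 3 or 0 hr replicate 2 or 5. None of the 15 p53 targets passed, with Plk2 at 0.04 ± 0.33 and Cdkn1a, an inhibitor of cyclin-dependent kinases, at 1.02 ± 0.67. None of the 16 glucocorticoid-responsive and metallothionein genes passed, with Tsc22d3 at -0.56 ± 0.39 and the metallothionein Mt1 at 0.21 ± 0.67.

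Among the 15 named genes that fell, Clec3b, tetranectin, changed most. It stood at 13.8, 16.7, 13.8 and 7.96 CPM at 72 hr and at 108, 180, 74.4, 119 and 44.4 CPM at 0 hr (-2.93 ± 0.53, adjusted p = 0.00151), the lowest control being replicate 5. The other 14 included Mfap4, a microfibril-associated protein (-2.32), Cpxm2 (-2.15), the fibulin Fbln7 (-2.03), Ltbp4, a latent TGF-beta binding protein (-1.99), Serpinf1 (-1.46) and Igfbp2, a binding protein of insulin-like growth factors (-1.45). Markers of fibroblasts and meninges summed to 2047 to 5873 CPM at 72 hr and 1580 to 9979 CPM at 0 hr, with 0 of 10 past the test and a median log2 fold change of -0.79. Their part in these changes was not tested. Dbp, a transcription factor of the circadian clock's output, stood at 81.4, 61.4, 42.8 and 44.9 CPM against 192 to 282 CPM (-1.999 ± 0.41, adjusted p = 0.00425), and the hour of sampling is not given in the sources used here. Fam180a, Kcne4, a potassium channel subunit, 1500015O10Rik, Xdh, the xanthine dehydrogenase, Ndrg1 and Cryab, a small heat shock protein, fell by 1.38 to 2.08 on the log2 scale, and H2-Aa is given above. Of the 15 that fell, 7 passed with sex as a covariate. Ptgds, prostaglandin D synthase and a gene with very high counts here, fell as well (-1.56, adjusted p = 0.0312), from 16672 to 78220 CPM at 0 hr to 11319 to 18509 CPM at 72 hr, with overlap. It did not pass with sex as a covariate (-1.28, adjusted p = 0.181), with DESeq2, with the replicate block, or without 0 hr replicate 1, 3 or 4 or 72 hr replicate 1, 3 or 5.

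The 72 hr response was then compared between brain and heart as an interaction in 1 fit of both tissues. It was called higher in brain for 142 of 19924 genes (0.713%) and lower for 35 (0.176%). The cell cycle list had 28 of 39 members higher in brain and a median difference of 3.67 on the log2 scale. Mki67 changed by 5.05 in brain and by -1.42 in heart, a difference of 6.47 ± 1.09 (adjusted p = 0.000846), and Cdk1 by 5.62 and -1.02 (6.64 ± 1.10, adjusted p = 0.000846). In heart 120 genes were higher at 72 hr (0.602%) and 8 lower (0.0402%), with no cell cycle member among them. The count of 28 ran from 19 to 31 when a 72 hr brain library was left out, with 19 reached without replicate 3, and was 28 with sex as a covariate.

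Of the complement genes 2 of 19 differed between the tissues (1 without 72 hr replicate 3 or 5), C3 (5.82 in brain and 1.72 in heart, difference 4.10 ± 0.88, adjusted p = 0.0075) and the EC surface protein Cd93 (2.05 and 0.45, difference 1.60 ± 0.39, adjusted p = 0.0256). Among the named genes Bst1 (2.28 ± 0.60, adjusted p = 0.0482), Tubb6 (3.26 ± 0.82, adjusted p = 0.0341) and Hcls1 (2.50 ± 0.55, adjusted p = 0.00919) responded more in brain, and Cryab less (-1.49 ± 0.39, adjusted p = 0.0459). None of the 20 acute phase genes differed by the test, and Lcn2 changed by 5.65 in brain and 5.28 in heart (difference 0.37 ± 1.21, adjusted p = 1). This error is wide, and the result does not show that the tissues responded alike.

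**Figure D5:**
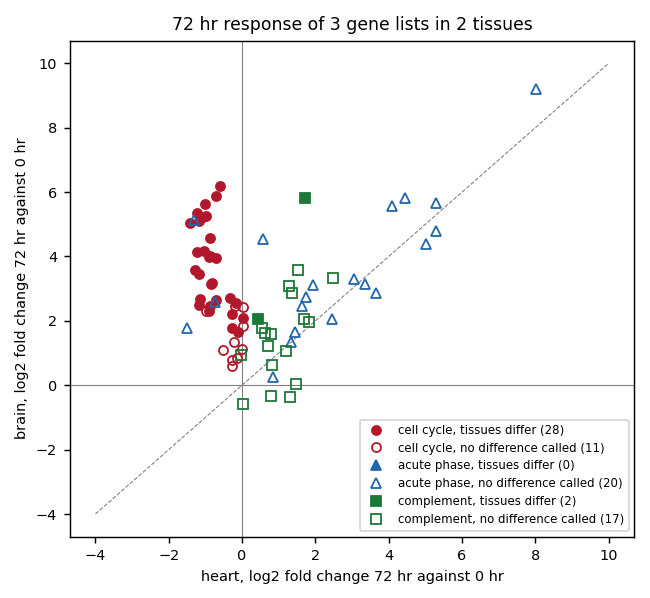
Log2 fold change at 72 hr against 0 hr in heart (horizontal) and brain (vertical) from 1 fit of both tissues, for cell cycle (circles), acute phase (triangles) and complement genes (squares), with filled marks where the difference between tissues has an adjusted p under 0.05. The dashed line marks equal changes; 28 cell cycle and 2 complement genes are filled.

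Between 72 hr and 168 hr 669 genes rose and 925 fell (3.48% and 4.81%), while the median of all genes was 0.13 on the log2 scale. Besides the cell cycle, 11 of 20 acute phase, 6 of 19 complement and 8 of 15 adhesion genes fell. 4 of 30 members of the transporter list rose, among them Mfsd2a (1.66, adjusted p = 0.00749). Saa3 stood at 26.2, 0.916, 9.57 and 3.21 CPM at 168 hr, below every 72 hr library (-6.19, adjusted p = 0.00436). H2-Aa rose again (1.99, adjusted p = 0.00749), as did Clec3b (3.14, adjusted p = 0.00222), although the lowest 168 hr library of each, replicate 1, was at 9.5 and 70.8 CPM. Without 72 hr replicate 5 the counts over all genes were 49 and 182, acute phase genes had 6 lower, adhesion genes 2 lower, and transporters 0 higher and 1 lower.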

How the data were processed

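RNA-Seq of HA-tagged, ribosome-bound endothelial RNA was analysed. The authors aligned reads to mm10 with STAR 2.4.2, counted them per gene with HTSeq 0.6.1 and deposited raw counts for 217 sequencing runs. The annotation release and the strand setting are not given in the sources used here, so a gene and an overlapping antisense gene cannot be told apart. Runs were summed to 98 libraries, which were grouped into library series 1 to 4 by the pattern of the deposited names, which the labels do not explain. Reads assigned to no gene stayed out of library sizes and tests.

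In edgeR 4.0.16 (R 4.3.3), genes were kept by filterByExpr, libraries scaled by TMM, and all kept brain libraries of the 6 times fitted together by quasi-likelihood with terms for time and series (two-sided, Benjamini-Hochberg). Series 4 holds 72 hr replicate 5 and no 0 hr brain library, so this library bears on the contrast with 0 hr only through the other times. The main fit was tested on simulated data with 200 changed genes. The simulation gave every gene the same dispersion and held no series or sex effect, so it cannot show how the fit performs with these. Levels on the log2 scale carry a prior count of 2. Gene coordinates are from GENCODE. Named genes were the 15 most changed in each direction that passed, averaged 3 or more on the log2 CPM scale and did not overlap between groups, and up to 4 members per direction of each of 34 lists, or the 2 most abundant where none passed. 1 gene that this rule names is not reported here. The members and lists were chosen with earlier results of these data known. Alternatives used DESeq2 1.42.0, limma-voom (limma 3.58.1) and the settings named in the closing section. Sex as a covariate, the fit of library series 2 alone and the fit without 6 hr replicate 6 were added after the data were seen. Figures were drawn with matplotlib 3.10.9.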

Additional observations from a re-analysis of the deposited data

Results flagged for a closer look

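In the 172 groups of 4 to 10 libraries examined among the named genes, 5 held a library far from the others on the log2 CPM scale, where about 1 in 20 such groups is expected to by chance. In the 0 hr group, replicate 1 stood apart for Ackr1 at 4.29 and for H2-Aa at 5.17. In the 72 hr group, replicate 1 stood apart for H2-Ab1 at 1.21 and for H2-K1 at 9.31, and replicate 5 for Procr at 8.75.

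For 9 named genes the 72 hr response differed between brain and heart by the interaction test. The difference, brain minus heart on the log2 scale, was 6.77 for Bub1, 6.64 for Cdk1, 6.61 for Aurkb and 6.47 for Mki67. It was 4.10 for C3, 3.26 for Tubb6, 2.50 for Hcls1, 2.28 for Bst1 and -1.49 for Cryab.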

How the results depend on the processing

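None of the 86 named genes that passed in the main fit changed sign under any alternative run that tested it. Members named where none of a list passed were not followed in this way. Of these, Ifi27, slightly negative in the main fit, was at 0.11 with sex as a covariate. Among lists, transporters at 72 hr went from 0 higher and 1 lower to 2 and 0 without 72 hr replicate 5, and between 168 and 72 hr from 4 and 0 to 0 and 1. Counts over all genes that moved by over 1.5 times are given first, as higher and lower. Against 0 hr at 72 hr, DESeq2 called 861 and 312, no low-count filter 880 and 262, no covariate for library series 338 and 34, only the 0 hr and 72 hr libraries 886 and 232, series 2 alone 253 and 26, and sex as a covariate 52 lower. Against 24 hr at 72 hr, DESeq2 called 1037 and 803, no filter 1158 and 821, no series covariate 271 and 228, sex 360 and 188, and limma-voom 219 lower. Between 168 and 72 hr, no series covariate gave 69 and 239, DESeq2 1470 lower, all libraries kept 312 higher, and a log2 fold change of at least 1 gave 362 higher. Between 72 and 48 hr, where edgeR called none, DESeq2 called 162 and 386, no filter 460 and 452, and sex 56 and 404. At 168 hr against 0 hr, DESeq2 called 2 lower and no filter 2 and 7. At 6 hr against 0 hr, no series covariate gave 381 and 85, DESeq2 677 lower, no filter 685 lower and a log2 fold change of at least 1 gave 251 lower. At 48 hr, limma-voom called 912 higher, no series covariate 634 lower, and a log2 fold change of at least 1 gave 981 and 486. Between 72 and 6 hr, no series covariate gave 618 and 190 and DESeq2 1147 lower. Between brain and heart, no series covariate gave 13 lower. The causes were not tested.

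Of the list counts at 72 hr against 0 hr, limma-voom lowered acute phase from 12 to 5, chemokines from 5 to 2, coagulation from 7 to 4, NF-kappaB from 4 to 2 and receptors from 3 to 0. Without the series covariate complement went from 10 to 4, microglia from 8 to 0, coagulation from 7 to 2 and endothelial identity from 5 to 0. Within series 2 cell cycle went from 34 to 15, adhesion from 6 to 2, coagulation from 7 to 3, identity from 5 to 1 and MHC class I from 3 to 7. With only the 0 hr and 72 hr libraries chemokines had 10, NF-kappaB 10, receptors 8 and MHC class I 9 higher. In that fit 72 hr replicate 5 was alone in its series, so the series term took it up and it carried no information on the contrast. Further list counts that moved by over 1.5 times are not given one by one, apart from those in the results above.

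Leaving out 1 library at a time gave 357 to 746 higher and 24 to 202 lower at 72 hr against 0 hr. The lower count was 24 without 72 hr replicate 5, 31 without replicate 3, and 41, 60 and 63 without 0 hr replicates 1, 2 and 4. The higher count was 357 without 72 hr replicate 3. Without 6 hr replicate 6 the counts were 746 and 202. The ranges were 30 to 843 and 4 to 541 for 72 against 24 hr, 49 to 1224 and 182 to 1404 for 168 against 72 hr, 627 to 1469 and 232 to 1291 for 6 hr, 768 to 1435 and 385 to 1138 for 24 hr, 737 to 1678 and 440 to 1375 for 48 hr, 740 to 1384 and 372 to 1014 for 72 against 6 hr, and 60 to 165 and 6 to 35 for brain against heart. Of 86 named genes, 54 to 72 passed without a given 0 hr or 72 hr library, 48 with sex as a covariate and 51 without the series covariate.

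With the replicate number as a block (replicate block), 476 genes were higher and 68 lower at 72 hr, 315 and 592 between 168 and 72 hr, and 499 and 340 at 24 hr. The deviations of same-numbered 0 hr and 72 hr libraries had correlations of -0.55, -0.55, -0.52 and -0.30. Each such pair came from different library series, and every pair within a series correlated positively, so this check cannot show whether numbers pair the libraries, and the labels do not say so. The block also lowered acute phase from 12 to 7, chemokines from 5 to 2, coagulation from 7 to 4, matrix from 4 to 1 and NF-kappaB from 4 to 1. Of 72 hr libraries, replicate 3 had the lowest depth, which limits calls of weakly expressed genes.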

Other observations

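The libraries left out for few reads on genes held 686402 counts at 72 hr (replicate 4, 2.48% on genes) and 582145 at 0 hr (replicate 6, 2.54%). In the 72 hr library Lcn2 and Saa3 had 1 count each and C3 and Serpina3n had none. The acute phase list held 48 counts there, or 69.9 CPM without TMM scaling, where the kept 72 hr libraries had at least 2481 CPM. In the left-out 0 hr library it held 24 counts, or 41.2 CPM. The cell cycle list held 958 counts, or 1396 CPM, in the left-out 72 hr library and 911 counts, or 1565 CPM, in the left-out 0 hr library, where the kept 0 hr libraries had at most 334 CPM and the kept 72 hr libraries at least 450.5 CPM on the same scale.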
